A study of Caenorhabditis elegans with 2 samples.

Results

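Nuclear genes of the mitochondrial respiratory chain were examined for chromatin binding of T22C8.4, a C. elegans protein that was tagged with GFP and immunoprecipitated from whole embryos. The genes were taken by symbol, as protein-coding genes named cox-, nuo-, asg-, atp-, sdha-, sdhb-, sdhd-, ucr-, cyc-, isp- or gas-. This gave 42 of the 19973 nuclear protein-coding genes of the annotation. This set and the other gene lists below were chosen with earlier results of these data known, so their shares of targets are not unbiased contrasts. The measurement was chromatin immunoprecipitation followed by sequencing, with an antibody against GFP per the sample description, in 2 biological replicates that form 1 group. Both came from strain OP785, whose transgene wgIs785 carries T22C8.4 fused to TY1 EGFP 3xFLAG together with unc-119(+), in animals with the unc-119 (tm4063) allele. The embryos were obtained by egg bleaching and are labelled as mid-stage, with an age of 2 hours. The labels name 1 transgenic strain and no change to the endogenous T22C8.4 gene, and all cells of the embryo were pooled. No untagged strain, other stage or other factor was analysed here, so no test between conditions was possible and all values below are descriptions. The files used are lists of peaks without read counts, and sequencing depth is unknown.

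The respiratory chain sits in the inner mitochondrial membrane. Complexes I and II pass electrons from NADH and succinate to ubiquinone, complex III passes them to cytochrome c, and complex IV (cytochrome c oxidase) passes them to oxygen. Complex V, the ATP synthase, uses the resulting proton gradient to make ATP. A few core subunits are made from mitochondrial DNA and the others from nuclear genes. In most of the complexes, subunits from separate genomes must therefore be made in matching amounts. Many worm genes lie in operons or share an intergenic region with a neighbour read from the opposite strand, and many mRNAs have their 5' end replaced by trans-splicing, so an annotated 5' end need not be the site where transcription starts.

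The sequences under 6 of the 10 peak summits, from 6 genes, are shown first because the results turn on these positions. Each run holds the 101 bases centred on a peak summit, read 5' to 3' on the plus strand of WBcel235 (the ce11 assembly), and credited to RefSeq. Capitals mark the word ATCGAT or the word ATTGAT or the word GAGAGA, or a reverse complement of one. The windows lie at chrX:6840921-6841021 (asg-2), chrV:11124078-11124178 (atp-5), chrIII:12905172-12905272 (cox-5A), chrIII:5081289-5081389 (the summit nearer to cox-6A), chrIII:2786010-2786110 (cox-6B) and chrIV:126252-126352 (cox-6C).
asg-2: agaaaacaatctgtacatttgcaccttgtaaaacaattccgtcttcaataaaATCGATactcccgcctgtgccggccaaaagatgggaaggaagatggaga
atp-5: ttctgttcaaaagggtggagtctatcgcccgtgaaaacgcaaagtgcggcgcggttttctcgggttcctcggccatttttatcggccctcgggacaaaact
cox-5A: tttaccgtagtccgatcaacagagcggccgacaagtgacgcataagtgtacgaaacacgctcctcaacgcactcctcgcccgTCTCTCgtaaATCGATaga
cox-6A (385 bp upstream): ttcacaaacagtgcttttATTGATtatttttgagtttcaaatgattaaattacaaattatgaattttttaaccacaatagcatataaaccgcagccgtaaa
cox-6B: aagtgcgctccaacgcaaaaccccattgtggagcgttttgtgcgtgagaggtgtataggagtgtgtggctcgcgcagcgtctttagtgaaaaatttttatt
cox-6C: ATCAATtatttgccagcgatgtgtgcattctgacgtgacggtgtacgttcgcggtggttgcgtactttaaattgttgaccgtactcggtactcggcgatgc

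In the main list, nearly every subunit gene of complex IV chosen here had a promoter peak. So did 3 of the 7 genes of complex V, and none of the genes chosen here from the other complexes did. A gene was counted as a target when a summit of the main list, which the authors called from both replicates together, fell between 1000 bp before and 200 bp after the 5' end of any of its transcripts. By this rule 9 of the 42 genes (21.4%) were targets, beside 6.08% of all protein-coding genes. The complex and role of each gene were assigned by hand from its symbol and textbook knowledge. Of the 7 genes taken by symbol as structural subunits of complex IV, 6 were targets (cox-4, cox-5A, cox-5B, cox-6A, cox-6B and cox-6C) and cox-7C was not. Of the 7 genes of complex V, 3 were targets (asg-2, atp-1 and atp-5). No target was found among 7 genes of complex I, 4 of complex II, 7 of complex III, 2 cytochrome c genes and 8 assembly factors of complex IV. The list that the authors name conservative, which also draws on both replicates, again held 9 targets among the 42 genes, beside 5.90% of all genes. The list called on replicate 1 alone held 8 targets beside 4.30% of all genes, and that of replicate 2 alone held 5 beside 3.28%. All 5 of these were targets in the main list. With each summit given only to the nearest protein-coding 5' end, 5 of the 42 genes (11.9%) were targets, beside 4.66% of all genes. These 5 were 55.6% of the 9 targets, while 76.6% of all 1215 targets were kept. Among the 7 complex IV subunit genes, 6 were targets in the list of replicate 1 and 4 in that of replicate 2. With the nearest 5' end only, 4 of them were targets.

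**Figure D1:**
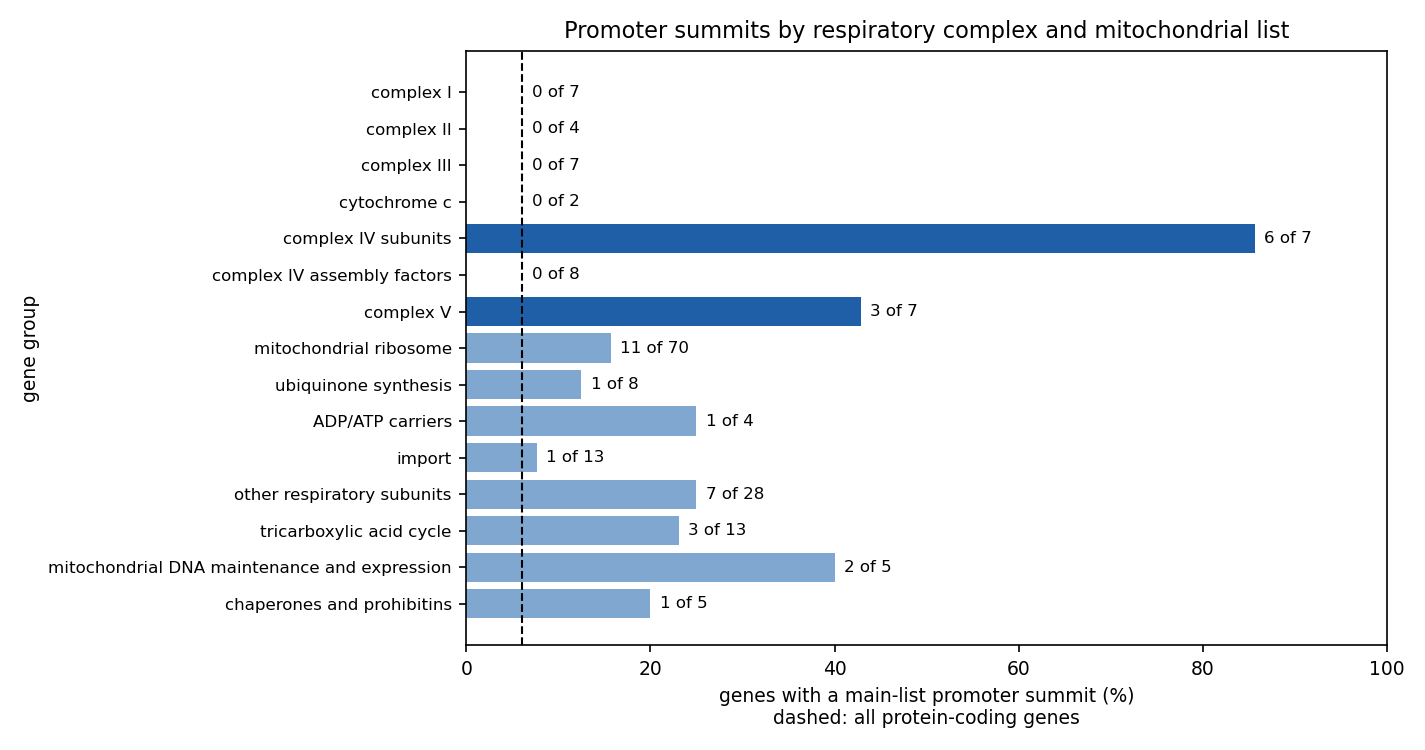
Percent of genes with a main-list promoter summit among the genes chosen by symbol, by respiratory complex (dark bars), and in other lists of nuclear mitochondrial genes (light bars). The number of targets and genes is beside each bar. The bar of other respiratory subunits holds further complex I genes. The dashed line is the share of all protein-coding genes, 6.08%, and the complex IV subunits reach 85.7%.

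The strongest peaks of the 6 complex IV targets ranked between 421 and 1494 of the 2415 main-list peaks. A signal value is the enrichment that the authors' peak caller assigned to a peak. It has no unit and is not scaled between lists, so values of the replicates' own lists are given side by side without a mean. The highest was at cox-5A (WBGene00012553, chromosome III, 12905491 to 12906619, plus strand), whose product is named for subunit Va of the mammalian enzyme. Its peak (12905160 to 12905272) had its summit 269 bp upstream, between genes, and reached a signal value of 186. The signal was 110 in replicate 1 and 86.1 in replicate 2, and the peak was in both replicates' own lists. No window of another annotated gene, piRNA genes aside, held this summit.

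At cox-6B (WBGene00022170, chromosome III), which encodes a small subunit on the outer face of the enzyme, the peak (2785915 to 2786204) reached 166. Replicate 1 gave 84.0 and replicate 2 gave 66.0, both in their own lists, with the summit at the same base in all 3. The annotation gives cox-6B 2 transcripts. The summit lay 142 bp upstream of the short one (2786202 to 2786754) and inside an intron of the long one, which spans 87197 bp from 2699663. No main-list summit lay in the promoter window of the long transcript, so the gene is a target through the short one alone.

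Both peaks at cox-6A (WBGene00006519, chromosome III, 5081724 to 5082995, plus strand) lay upstream of the gene. The stronger one (signal value 148) had its summit 843 bp upstream, inside a noncoding gene. It had 82.6 in replicate 1 and 69.6 in replicate 2 and was in both own lists. The 31 bases centred on that summit occur at 19 places in the nuclear genome, so reads there can belong to other copies, and the signal value of this peak is uncertain. The weaker peak (5081194 to 5081483, signal value 76.0) had its summit 385 bp upstream, between genes, in sequence that occurs 1 time. It had 56.2 in replicate 1, in its own list, and 41.3 in replicate 2, below the cutoff. Without the stronger peak, cox-6A was still a target in the main list and in replicate 1, and not in replicate 2.

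The other 3 complex IV targets had signal values from 93.1 to 128. At cox-5B (WBGene00000371, chromosome I, 9788725 to 9790050, plus strand) the peak (9788591 to 9788880) had its summit 11 bp into the gene, in an exon outside the coding sequence. Its signal value was 128, with 66.8 in replicate 1 and 57.7 in replicate 2. The other 9 summits lay upstream of the 5' end used. The cox-6C peak (WBGene00017926, chromosome IV, 126731 to 127640, plus strand; peak 126157 to 126446) reached 120, with 64.2 and 61.8 in the replicates and a place in both own lists. Its summit was 429 bp upstream, inside the noncoding RNA gene F29C4.9. The cox-4 peak (WBGene00012354, chromosome I, 13658171 to 13659128, minus strand; peak 13659365 to 13659654) reached 93.1, with 60.1 in replicate 1 and 43.3 in replicate 2. Its summit was 382 bp upstream, in an intron of the pseudogene WBGene00012355, which runs on the opposite strand.

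Among the complex V genes, asg-2 had the strongest promoter-window peak of all 42 genes. It encodes subunit g, a small membrane protein of the ATP synthase (WBGene00000210, chromosome X, 6841258 to 6842121, plus strand). The peak (6840937 to 6841042) reached 218 and rank 309, with 111 in replicate 1 and 108 in replicate 2, and its summit lay 287 bp upstream. The irreproducible discovery rate (IDR) scores how consistently a peak ranks when 2 rankings are compared, and its -log10 is capped at 5. The asg-2 peak was at that cap in the pooled list and in both replicates. The paralogue asg-1 had no entry in its window in the pooled ranked list, which also holds peaks that fail the cutoff, and a signal value of 30.5 in that of replicate 1.

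The peaks at atp-5 and atp-1 were weaker. The atp-5 gene encodes subunit d of the stalk of the ATP synthase (WBGene00007385, chromosome V, 11122901 to 11123867, minus strand). Its peak (11123983 to 11124272) reached 115, with 65.3 in replicate 1, in its own list, and 47.0 in replicate 2, below the cutoff. The atp-1 gene encodes the alpha subunit of the catalytic head (WBGene00010419, chromosome I, 12652277 to 12654655, plus strand). Its peak (12652124 to 12652413), 8 bp upstream, had the lowest signal value of the 10 summits, 75.1, with 33.5 in replicate 1 and 51.7 in replicate 2, and was in neither replicate's own list. The genes atp-2 (the beta subunit), atp-3 (OSCP) and atp-4 had entries of 31.4, 53.3 and 46.6, all below the cutoff.

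**Figure D2:**
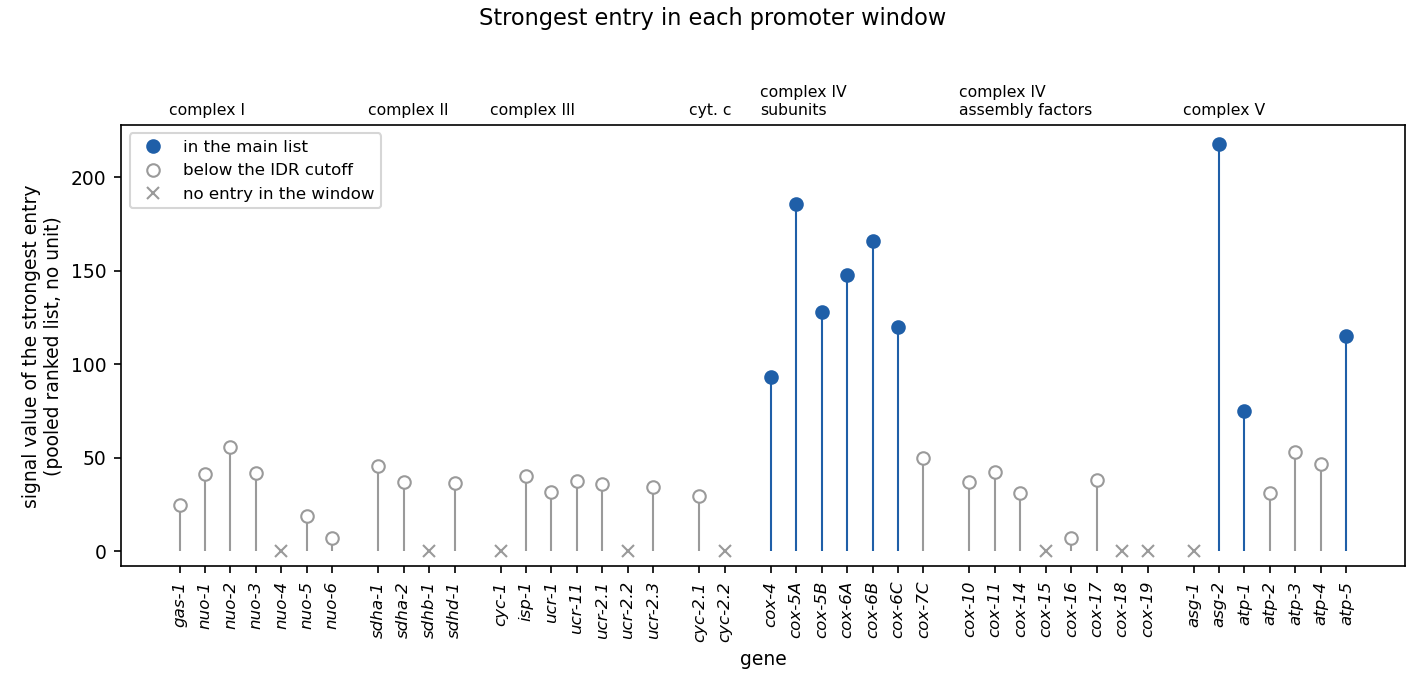
Signal value (no unit) of the strongest entry of the pooled ranked list in the promoter window of each of the 42 genes, grouped by complex. Filled points are main-list targets, open points are entries below the IDR cutoff and crosses mark genes with no entry. The 9 targets lie between 75.1 and 218 and the open points between 7.1 and 55.9.

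Of the 33 genes that were not targets, 24 had weak entries and 9 had no entry in the pooled ranked list. Of all 42 genes, 33 (78.6%) had at least 1 entry of the pooled ranked list in the window, beside 51.6% of all protein-coding genes. Those without were asg-1, cox-15, cox-18, cox-19, cyc-1, cyc-2.2, nuo-4, sdhb-1 and ucr-2.2. Among the 24 genes with an entry and no main-list summit the strongest entry had a median signal value of 37.1. Over the 33 respiratory genes with an entry, targets included, the median was 41.6, and over all protein-coding genes with an entry it was 39.1. The authors' score, which runs to 1000, was at least 830 in the thresholded lists, which corresponds to an IDR of 0.01. The strongest entries by signal value of the 24 had scores from 27 to 313. Scores of weaker entries in the same windows were not compared.

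By the score of the strongest entry, the gene nearest to the cutoff was sdha-2, which encodes a flavoprotein subunit of complex II. That entry had a score of 313 and a signal value of 36.9 at 68 bp downstream. Next were atp-3 and cox-7C with a score of 280 each and signal values of 53.3 and 49.8. The cox-7C entry lay 630 bp upstream and had 28.0 in replicate 1 and 25.2 in replicate 2, below the values of all 6 complex IV targets in each. In complex I, nuo-2 had a score of 273 (signal value 55.9, the highest of the genes that were not targets) and nuo-1, the flavoprotein that takes electrons from NADH, a score of 176 (signal value 41.6). The assembly factor gene cox-16 had a score of 160 at a signal value of 7.1. In complex III the entries of ucr-1, ucr-2.1, ucr-2.3, ucr-11 and the Rieske iron-sulfur protein gene isp-1 ran from 32.0 to 40.3.

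At 5 of the 9 targets the peak was shared with a divergent protein-coding neighbour. Of the 10 summits, 5 lay between genes, and the other 5 lay inside an annotated gene, as given above for each. Of the 10 summits, 9 lay upstream of the 5' end, and the median distance over all 10, on either side, was 278 bp. Of all pairs of a gene and a promoter summit in the main list, 88.2% lay upstream. The median distance over all these pairs, on either side, was 273 bp. In those 5 targets (55.6%) the summit was also in the promoter window of another protein-coding gene on the opposite strand, beside 40% of all 1215 targets. These were asg-2 with glr-6, which encodes a glutamate receptor subunit, atp-1 with mcrs-1, atp-5 with lmtr-3, cox-6B with Y71H2AM.20 and cox-6C with grld-1. In 4 of the 5 the neighbour's 5' end was nearer to the summit than that of the respiratory gene. The distances were 251 bp to glr-6 and 287 bp to asg-2, 58 bp to lmtr-3 and 261 bp to atp-5, 112 bp to Y71H2AM.20 and 142 bp to cox-6B, and 371 bp to grld-1 and 429 bp to cox-6C. At atp-1 the order was reversed, with 182 bp to mcrs-1 and 8 bp to atp-1. A peak between divergent genes cannot be assigned to either from these files.

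Noncoding genes and pseudogenes had windows at the summits of 4 targets. The pseudogene WBGene00012355 began 79 bp from the cox-4 summit, a noncoding gene began 17 bp and 441 bp from the cox-6A summits, and F26E4.16 and F26E4.14, which are noncoding genes on the same strand within cox-5B, began 485 bp and 510 bp downstream of its summit. F29C4.9 began 39 bp from the cox-6C summit. The cox-6B summit also lay 792 bp upstream of nduc-2, the next gene on the same strand, which is named for a subunit of complex I and is not among the 42 genes. No summit was shared between 2 of the 42 genes.

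**Figure D3:**
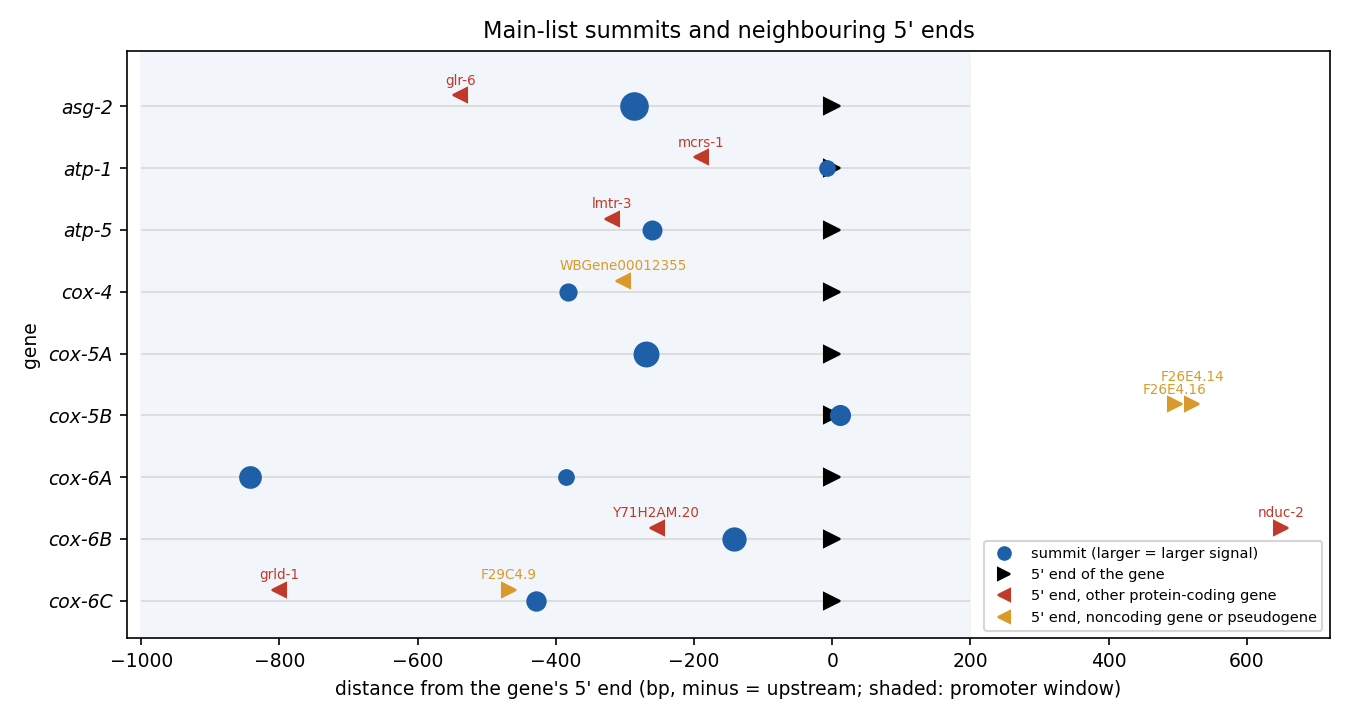
Position of each main-list summit (blue, larger for larger signal values) along the distance in bp from the 5' end of its respiratory gene (black), with the 5' ends of genes whose windows hold the same summit. Red marks other protein-coding genes and ochre noncoding genes or pseudogenes, of which the 1 at cox-6A is not drawn. Arrowheads show the strand relative to the respiratory gene, and 5 summits have a red arrowhead of the opposite strand within 1000 bp upstream.

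The 4 strongest peaks passed the cutoff in both replicates, and of the 6 weaker ones the cox-6C peak alone did so. All 10 summits had an overlapping entry in the ranked list of each replicate, with summits moved by at most 41 bp. In replicate 1, 9 of the 10 peaks passed the cutoff of 2 on the -log10 IDR scale, and in replicate 2, 5 passed (asg-2, cox-5A, cox-6B, cox-6C and the stronger peak at cox-6A). At cox-4 the -log10 IDR was 3.09 in replicate 1 and 0.0984 in replicate 2, the widest gap of the 10, while by signal value the peak ranked 1230 of 38917 and 1945 of 38294 entries. At cox-5B it was 3.09 and 1.29, and at atp-5 2.38 and 0.906. At atp-1 both were under 2, with 1.13 and 1.5, and the pooled value was 2.25. Of all 1215 targets, 40.9% were targets in both own lists and 23% in neither. Of the 9 respiratory targets these were 5 (55.6%) and 1 (11.1%). The replicate 1 list was also the longer one, with 1629 peaks against 1319.

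**Figure D4:**
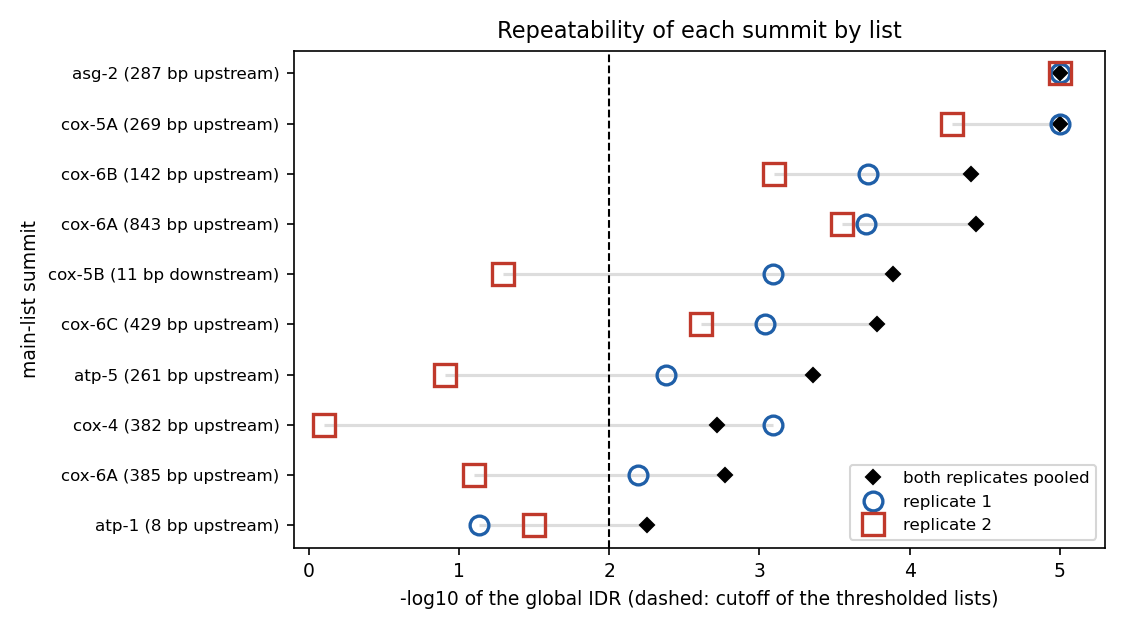
The -log10 of the global IDR of each main-list summit, ordered by signal value, in the list pooled over both replicates (black), in replicate 1 (blue circles) and in replicate 2 (red squares). Values are capped at 5 and the dashed line at 2 is the cutoff. In replicate 1, 9 of the 10 summits pass, and in replicate 2, 5 pass.

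By sequence, the target summits were richer in G and C than promoters at large, and the words that are common at other summits were found in part of them. The 10 windows of 101 bases had a median GC content of 48.5% (from 25.7% to 59.4%). The median was 44.6% over the 1047 promoter summits of the main list, and 33.7% over windows of that length centred 250 bp upstream of all 19973 protein-coding genes. The words ATCGAT and ATTGAT, counted on both strands, are those that an earlier examination of these peaks had brought up. At least 1 of them was in 5 of the 10 windows (50%), beside 63.9% of the promoter summits and 14% of all promoters. ATCGAT was in 2 windows, beside 45.2% of the promoter summits and 3.67% of all promoters. ATTGAT was in 3 windows, beside 30.1% and 10.9%. GAGAGA was in 1 window, beside 14% and 6.48%.

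In the sequences printed above, ATCGAT begins 2 bases to the right of the asg-2 summit and 42 bases to the right of the cox-5A summit, where TCTCTC, the reverse complement of GAGAGA, precedes it. These are also the 2 strongest peaks of the group. ATTGAT begins 32 bases to the left of the weaker cox-6A summit, in a window with a GC content of 25.7%. At cox-6C the reverse complement ATCAAT stands at the left edge of the window, 50 bases from the summit. The windows of atp-5 and cox-6B hold none of the 3 words.

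Chromosome position varied. The targets were 3 of 12 respiratory genes on chromosome I, 3 of 9 on III, 1 of 6 on IV, 1 of 5 on V, 1 of 5 on X and 0 of 5 on II. Over all protein-coding genes the share of targets was highest on III (10.3%) and I (9.1%) and lowest on V (3.3%). With each autosome cut into 3 equal parts, 4 of the 9 autosomal respiratory summits lay in the middle part, both cox-6A summits among them. Of all autosomal main-list summits, in promoters or elsewhere, 19% lay there.

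Other summits lay near respiratory genes and outside the promoter window. Upstream of cyc-2.1, a cytochrome c gene, a peak of signal value 153 had its summit 1063 bp from the 5' end. Upstream of ucr-11 a peak of 142 lay at 1305 bp, in the noncoding gene F57B10.17, and upstream of cox-10, which acts in the synthesis of the heme of complex IV, peaks of 113 and 99.9 lay at 1204 bp and 1646 bp. The peak 1570 bp upstream of sdha-2 (93.6) was in the windows of the complex I gene ndua-13 and of kbp-5. A peak of 83.3 lay 1881 bp upstream of cox-16. A peak of 145 lay 915 bp past the end of cox-5B. Along the long transcript of cox-6B, 5 further intronic peaks had signal values from 72.8 to 249, which is above the 166 of its promoter peak. The intron also holds other genes, and 1 of these peaks lay in an intron of laf-1 and 1 in an intron of gldi-9.

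The absence of complex I targets among the genes named nuo- and gas- did not extend to complex I genes with other symbols. In a list of 28 further respiratory subunit and ATPase inhibitor genes, 7 (25%) were targets in the main list. In the list of replicate 1 alone there were 3, in that of replicate 2 alone 3, and with the nearest 5' end only 3. The 7 were 6 of the 22 complex I genes in that list (nduf-7, ndub-8, ndua-13, ndua-2, ndua-8 and nduf-9) and mev-1, the cytochrome b subunit of complex II. None of the 5 genes of complex V and its inhibitors in that list was a target. The list took complex I genes named ndua-, ndub- and nduf-, with lpd-5, and does not hold nduc-2, which is a target through the cox-6B summit. The nduf-7 peak was the strongest, with a signal value of 316 and a summit 6 bp downstream of the 5' end, and was in both own lists. The ndub-8 peak had 113 at 151 bp upstream, and ndub-8 was a target in the list of replicate 1 and not of replicate 2. The mev-1 peak had 78.7 at 143 bp upstream and was in neither own list. Peaks also in windows of other protein-coding genes were those of ndub-8 (cup-14), mev-1 (jmjd-4), ndua-13 (kbp-5) and ndua-2 (dnj-29 and fld-1). The ndua-8 peak at 279 bp upstream was also in windows of Y54F10AM.15 and rbc-2.

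Other nuclear genes for mitochondrial proteins were targets in 27 of 146 cases (18.5%) over 8 lists, including the 28 genes above. The mitochondrial ribosome had 11 targets among 70 genes (15.7%), led by mrps-28 (signal value 401 at 999 bp and 227 at 177 bp upstream) and mrpl-40 (214 at 201 bp). The lists of replicate 1 and replicate 2 alone held 8 and 5 such targets, and with the nearest 5' end only there were 4. Genes of the tricarboxylic acid cycle were targets in 3 of 13 cases, and the 3 were idhg-1 (279), idhb-1 (194) and idha-1 (126), the subunit genes of the NAD-dependent isocitrate dehydrogenase. All 3 were targets in both own lists. Genes that maintain or express mitochondrial DNA were targets in 2 of 5 cases, the DNA polymerase gene polg-1 (171 and 68.3) and the single-strand binding protein gene mtss-1 (143). The ADP/ATP carriers had 1 of 4 (ant-1.1, 93.0), ubiquinone synthesis 1 of 8 (coq-3, 212), protein import 1 of 13 (tomm-22, 96.5) and chaperones and prohibitins 1 of 5 (hsp-60, 121). These counts stand beside the background of 6.08%, and several rest on few genes. With the nearest 5' end only, chaperones and prohibitins had 0 targets, and the other lists named after the mitochondrial ribosome kept their counts. The peaks of mrpl-40, idhg-1, mtss-1, ant-1.1 and hsp-60, and that of mrps-28 at 177 bp, also lay in windows of other genes.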

How the data were processed

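Both replicates of the T22C8.4 immunoprecipitation were used through 8 peak lists, called per replicate and on both together. The assembly was ce11 and chromatin was sonicated to 200 to 800 bp, per the labels. The deposited notes derive each list from the alignment of 1 or both replicates and further shared inputs, and do not say how the conservative list differs. A control alignment was not used here. Aligner, peak caller and versions: not given in the sources used here. Each deposited signal value has no unit. The deposited score follows the IDR up to a cap of 1000, and the ranked lists deposited by the authors give the -log10 of the global IDR.

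Ensembl release 115 (WBcel235, the same assembly) gave the genes and 5' ends, and every main-list peak lay within its chromosome. Peaks were matched between lists by an overlap of at least 1 bp, taking the strongest entry. Ranks are by signal value within a list. Named genes were all members with a summit, those with a summit in another list only (0), and neighbours sharing a summit. The 6 others whose strongest entry by signal value had the highest score were also named. The members and lists were chosen with earlier results of these data known. Of 200 summits planted inside promoter windows in simulated lists, 200 were recovered. This checks the window counting only and measures no sensitivity for real peaks. Python 3.11.15, pandas 2.3.3 and matplotlib 3.10.9 were used. The sequence and coordinates of 1 peak are not reported here. No test was made, and the alternatives tried are in the closing section.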

Additional observations from a re-analysis of the deposited data

How the results depend on the processing

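The count of 9 respiratory targets was 8 or more under 7 of the 10 alternatives. Leaving out 1 replicate gave 5 to 8 targets, beside 3.28% to 4.30% of all genes, and 1 to 2 targets in complex V. With the nearest 5' end only there were 5 targets, 1 of them in complex V. A window of 2000 bp upstream gave 14 targets, beside 8.14% of all genes, and added cox-10, cox-16, cyc-2.1, sdha-2 and ucr-11, which are 1 gene each in complex II, complex III and cytochrome c and 2 assembly factors. Counting any overlap of peak and window gave 10 targets, with 1 in cytochrome c. The main-list peaks with signal values in the upper part, split at the median, gave 7 targets, beside 3.27% of all genes. The complex IV subunits kept 4 to 6 targets and the nuo- and gas- genes of complex I had 0 under each of these. The genes cox-5A and cox-6A were targets under all 10 alternatives. With replicate 2 alone or the upper part by signal value, cox-6A was a target only through the summit whose sequence occurs at 19 places. The genes asg-2, cox-5B and cox-6C were targets under 9, atp-5, cox-4 and cox-6B under 8 and atp-1 under 7. Peak lists carry no read counts, so what depth limits could not be measured. The causes of these differences were not tested. No paired analysis was possible because the replicates form 1 group.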
